A study of Bos taurus with 6 samples.

Results

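The genes described here are 10 regulators of the eye field and the anterior neural plate, namely RAX, PAX6, SIX3, SIX6, LHX2, HESX1, OTX2, HMX1, MAB21L1 and MAB21L2, out of 19163 genes in the count table. They were chosen by name, with their measured difference between the groups of this study already known, so that difference is given below as a description without a test. All 10 were matched by Entrez identifier and symbol, and all 10 were among the 13001 genes that passed the filter on low counts.

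RNA-seq was carried out on the bovine embryonic stem cell line F7, derived from in vitro fertilized Holstein Friesian embryos, at passage 15. Cells grown on mouse embryonic fibroblasts (MEFs, from C57 mice) whose division had been arrested by mitomycin C are called MC-F7 (the labels write 1M), and cells grown on MEFs fixed with methanol are called MT-F7, with 3 libraries in each group. Both groups shared the CTFR medium, a base without growth factors to which recombinant human FGF and IWR1, an inhibitor of canonical WNT signaling, were added, with the ROCK inhibitor Y-27632 after dissociation, and a step on gelatin from which the floating cells were taken. The medium was changed every day for MC-F7 and every other day for MT-F7, so feeder treatment and medium change cannot be told apart, and both groups stem from 1 line.

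The eye field is the part of the anterior neural plate that gives rise to the optic vesicles, and its cells share a set of transcription factors. OTX2 prepares the anterior neural plate, RAX, PAX6, SIX3, SIX6 and LHX2 then act together to specify retinal fate, and signals that inhibit WNT and BMP at the head end favor this fate over more posterior ones. HESX1 is a repressor of the early forebrain and pituitary, HMX1 is a homeobox factor of the developing eye and ear, and MAB21L1 and MAB21L2 are related proteins required for the lens and the retina.

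The libraries held 21958386 to 24933430 counts, and 3 counts corresponded to 0.120 to 0.137 CPM, the count scaled to 1000000 counts of the library. That range leaves out the normalization factors (TMM) that enter the CPM values of genes below. The share of counts on mitochondrial genes was 16.3% to 28.3% in MC-F7 and 18.0% to 27.9% in MT-F7. Of 13001 genes tested by edgeR's quasi-likelihood test, 1553 passed the threshold (adjusted p under 0.05) as higher in MT-F7 and 1463 as lower, and the median log2 fold change of all tested genes was -0.0026. The labels do not say that replicates were grown separately, and the paper's statistics section speaks of technical replicates without naming the RNA-seq. The p-values therefore measure only the spread between these samples, which may be technical. These are bulk samples, in which more cells of a type and more RNA per cell cannot be told apart.

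Across the members, 9 of 10 were higher in MT-F7 with all 3 MT-F7 values above all 3 MC-F7 values, and OTX2 was the exception. The same pattern of values was found in 19.9% of all tested genes. The edgeR threshold was passed by the same number, 9 of 10, all higher in MT-F7, beside 11.9% of all tested genes called higher and 11.3% called lower. The members were selected on this contrast, so nothing is read from these counts. The median log2 fold change of the members was 3.10 (lowest 0.26, highest 6.67), and 9 of them exceeded 1.5, a size reached by 454 tested genes (3.49%).

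**Figure D1:**
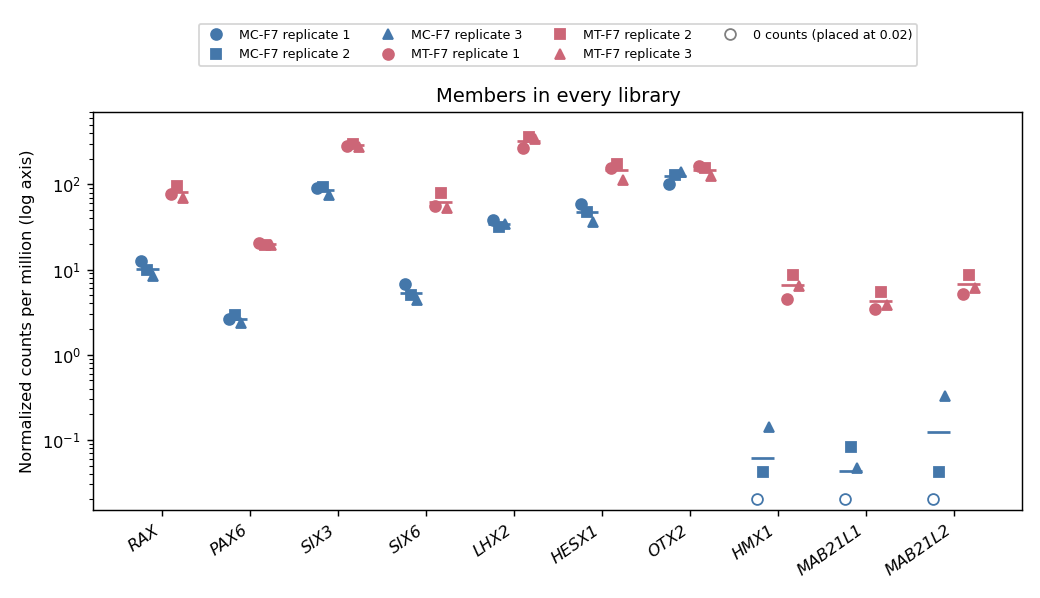
Normalized CPM (log axis) of each member in the 3 MC-F7 (blue) and 3 MT-F7 (red) libraries, with horizontal lines at the group means and open symbols for 0 counts. The groups overlap for OTX2 and are apart for the other 9 members, and HMX1, MAB21L1 and MAB21L2 lie under 0.4 CPM in every MC-F7 library.

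RAX, the homeobox factor at the head of the eye field network, had 12.6, 9.74 and 8.41 CPM in the 3 MC-F7 libraries and 77.6, 95.9 and 69.5 CPM in the 3 MT-F7 libraries. Every MT-F7 library was thus far above the highest MC-F7 library, and the means were 10.3 ± 2.16 and 81.0 ± 13.5 CPM (SD, n = 3). The log2 fold change was 2.98 ± 0.20 (SE), a 7.89-fold difference of the means.

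PAX6, the paired-box factor needed for the eye in most animals, was at 2.61, 2.90 and 2.38 CPM in MC-F7 and 20.6, 19.5 and 19.7 CPM in MT-F7. The MT-F7 libraries lay close together, with a coefficient of variation of 2.97%, the smallest among the members. The log2 fold change of PAX6 was 2.92 ± 0.19 (SE), and with 180 summed counts in MC-F7 against 1485 in MT-F7 it was the least deeply covered of the 5 eye field factors.

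SIX3 and SIX6 are sine oculis homeobox factors, the first acting in forebrain and eye and the second mainly in the optic vesicle, retina and pituitary. SIX3 had 90.7, 93.2 and 75.6 CPM in MC-F7 and 285, 300.2 and 277 CPM in MT-F7, a 3.32-fold difference with a log2 fold change of 1.73 ± 0.15 (SE). SIX6 had 6.72, 4.97 and 4.39 CPM in MC-F7 and 55.5, 78.2 and 52.8 CPM in MT-F7, an 11.6-fold difference with a log2 fold change of 3.53 ± 0.22 (SE). SIX6 therefore differed by a larger factor than SIX3, and replicate 2 was the highest MT-F7 library for both. Per length, SIX6 stood at 0.0941 ± 0.0165 of the SIX3 level in MC-F7 (SD, n = 3) against 0.328 ± 0.0596 in MT-F7.

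LHX2, a LIM homeobox factor that carries the eye field over to the optic vesicle, had 38.1, 31.9 and 33.9 CPM in MC-F7 and 265, 363 and 345 CPM in MT-F7. The lowest MT-F7 library was several times above every MC-F7 library, and the log2 fold change was 3.23 ± 0.18 (SE), a 9.36-fold difference. Its summed counts were 2356 in MC-F7 against 24153 in MT-F7, the most of any member in MT-F7.

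HESX1 and OTX2 are the broader anterior regulators of the set. HESX1 had 59.2, 46.8 and 35.7 CPM in MC-F7 and 158, 173 and 112 CPM in MT-F7, and its log2 fold change was 1.64 ± 0.21 (SE). OTX2 had 101, 129 and 140 CPM in MC-F7 and 165, 154 and 127 CPM in MT-F7. Its lowest MT-F7 library lay below the MC-F7 libraries 2 and 3, so the groups overlapped. The log2 fold change of OTX2 was 0.26 ± 0.17 (SE), and it ranged from 0.14 to 0.36 under 13 alternative analyses, none of which called it. The paper, from the same RNA-seq, counts OTX2 among primed markers with significantly higher expression in MT-F7. Which test gave that result is not stated there. Whether the difference of OTX2 was smaller than that of the other members was not tested.

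HMX1, MAB21L1 and MAB21L2 were at or near 0 in MC-F7. HMX1 was counted 0, 1 and 3 times in the MC-F7 libraries, against 113, 225 and 149 times in the MT-F7 libraries. The summed counts, scaled to library size, gave a ratio of 112, with an exact (Clopper-Pearson) 95% interval of 43.6 to 414 that covers counting error only. MAB21L1 was counted 0, 2 and 1 times in MC-F7, against 87, 140 and 90 times in MT-F7, a ratio of 97.5 (33.1 to 476). MAB21L2 was counted 0, 1 and 7 times in MC-F7, against 131, 226 and 144 times in MT-F7, a ratio of 57.8 (29.1 to 135).

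Of the 8 MAB21L2 counts in MC-F7, 7 came from replicate 3, which also held the most HMX1 counts of that group. The fitted log2 fold changes of HMX1, MAB21L1 and MAB21L2 were 6.67 ± 0.55, 6.43 ± 0.55 and 5.76 ± 0.58 (SE), ranked 4, 5 and 6 of 13001, and they depend on the prior count because so few counts stand behind the MC-F7 values. MAB21L1 and MAB21L2 are similar copies, and how reads that match both were counted is not given in the sources used here, so their split is uncertain.

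**Figure D2:**
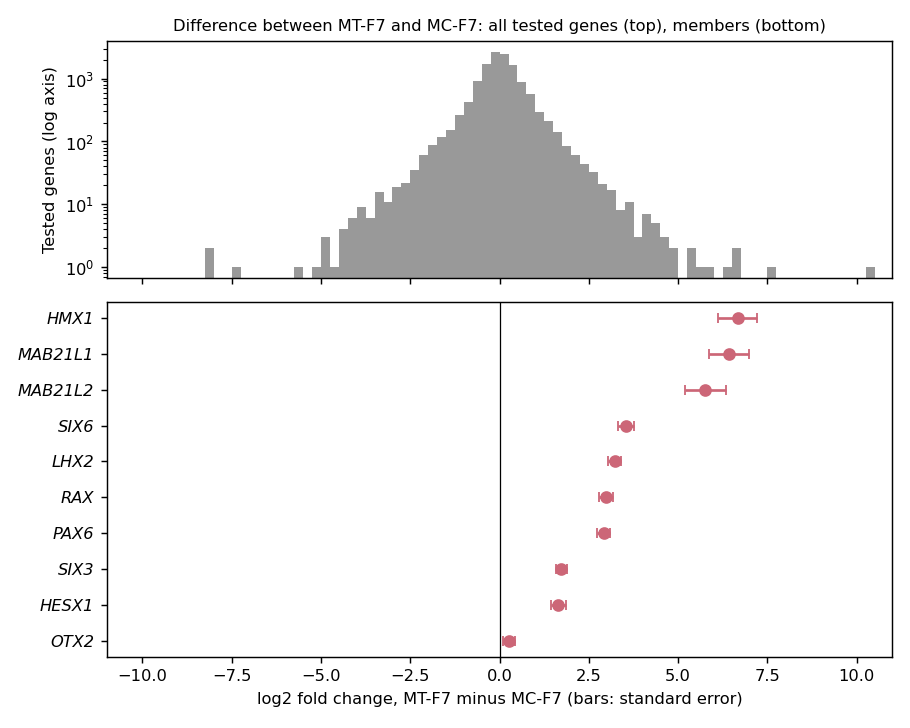
Log2 fold changes of MT-F7 against MC-F7, as a histogram of all 13001 tested genes (top, number of genes on a log axis) and for each member (bottom, points with bars of 1 standard error). The members run from 0.26 for OTX2 to 6.67 for HMX1, and HMX1, MAB21L1 and MAB21L2 lie near the right end of the distribution.

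Within MT-F7, replicate 2 had the highest CPM for 8 of 10 members and replicate 3 for 0, whereas over all tested genes replicate 2 was highest for 30.9% and replicate 3 for 41.8%. The value of replicate 2 over the mean of the other 2 MT-F7 libraries was 1.61 for HMX1, 1.54 for MAB21L2, 1.48 for MAB21L1, 1.44 for SIX6 and 1.3 for RAX. It was 0.969 for PAX6, 1.06 for OTX2 and 1.07 for SIX3. HMX1, MAB21L1 and MAB21L2 thus stood furthest above the other MT-F7 libraries in replicate 2. Without MT-F7 replicate 2 the same 9 members were called.

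Levels were compared between genes only per length, on the deposited TPM values rescaled to the same sum of 1000000 in each library. In MC-F7 OTX2 was the highest member at 100.3 ± 16.1 (SD, n = 3), followed by HESX1 at 61.0 ± 15.7 and SIX3 at 50.0 ± 7.14, and the libraries of HESX1 and SIX3 overlapped. LHX2 followed at 23.5 ± 1.87, RAX at 12.6 ± 2.71, SIX6 at 4.70 ± 1.07 and PAX6 at 1.98 ± 0.272, each apart from the next. MAB21L2, HMX1 and MAB21L1 were at 0.144, 0.0739 and 0.0234, and neighbors among them overlapped.

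In MT-F7 the order was different. LHX2 was at 232 ± 39.4, HESX1 at 202 ± 51.6 and SIX3 at 175 ± 15.0 (SD, n = 3), with overlap between LHX2 and HESX1 and between HESX1 and SIX3. OTX2 at 128 ± 21.3 was apart from SIX3 and overlapped with RAX at 105 ± 22. SIX6 at 57.9 ± 15.3 and PAX6 at 15.8 ± 0.874 came next, and HMX1 at 8.56 ± 3.0 and MAB21L2 at 8.52 ± 2.61 overlapped above MAB21L1 at 2.40 ± 0.671. OTX2 thus went from the highest level per length in MC-F7 to the fourth in MT-F7, while its own values overlapped between the groups.

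The summed level of the 10 members was 254 ± 18.1 in MC-F7, against 935 ± 143 (SD, n = 3) in MT-F7, and OTX2 made up 39.7% ± 7.63 of the sum in MC-F7 and 13.7% ± 1.71 in MT-F7. LHX2 made up 9.25% ± 0.812 and 25.0% ± 4.04 of it. The ratio of LHX2 to OTX2 was 0.314, 0.206 and 0.202 in the MC-F7 libraries and 1.34, 1.97 and 2.27 in the MT-F7 libraries. The ratio of PAX6 to RAX did not separate the groups, at 0.161 ± 0.0301 in MC-F7 and 0.153 ± 0.0255 in MT-F7. In MT-F7, MAB21L2 stood at 3.53 ± 0.132 times the level of MAB21L1 per length, a ratio nearly constant over the 3 libraries, and part of it came from the length used, since 1 count of MAB21L2 was worth 2.24 times the TPM of 1 count of MAB21L1.

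**Figure D3:**
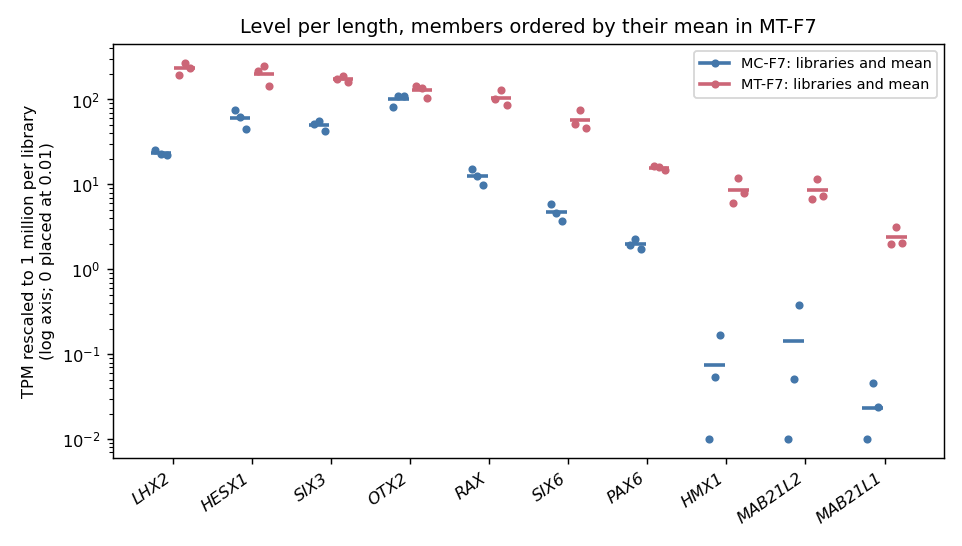
Level per length (deposited TPM rescaled to 1000000 per library, log axis) of each member in MC-F7 (blue) and MT-F7 (red), with points for the libraries and lines for the means, ordered by the MT-F7 mean. OTX2 is the highest member in MC-F7 at 100.3, and LHX2, HESX1 and SIX3 have higher means than OTX2 in MT-F7.

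Likeness of pattern was measured as the root mean square difference of log2 CPM over the 6 libraries after each gene's own mean was removed. The measure includes the difference between the groups, so a small value largely restates a similar fold change. The members were chosen with that difference known. For HMX1, MAB21L1 and MAB21L2 it also depends on the prior count, since they were at or near 0 in MC-F7. Among the members, SIX3 and HESX1 (0.22), RAX and PAX6 (0.22) and RAX and LHX2 (0.23) were closest to each other. HMX1 was nearest to MAB21L2 (0.32) and MAB21L1 (0.43) out of all tested genes. Outside the members, the genes nearest to RAX were TGFB2 (0.085), MEST (0.10) and LIX1 (0.18), and those nearest to PAX6 were FEZF1 (0.18), a forebrain zinc finger factor, TGFB2 (0.19) and RELN (0.20). SIX3 was nearest to LMO1 (0.074), DNAJC1 (0.083) and LHX5 (0.083), and HESX1 to SOCS2 (0.085), LXN (0.11) and MIP (0.12). SIX6 was nearest to CRABP1 (0.18), a retinoic acid binding protein, RLBP1 (0.23) and DLX5 (0.24), and LHX2 to the melanosome protein gene PMEL (0.10), CRABP1 (0.17) and TGFB2 (0.20). OTX2 was nearest to STOM (0.039), RBL2 (0.065) and ATP11B (0.068), of which none was called. MAB21L1 was nearest to CAPN6 (0.35), HMX1 and CDH9 (0.64), MAB21L2 to HMX1, GRHL3 (0.64) and MAB21L1, and the third gene for HMX1 was DKK1 (0.63).

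MAB21L1 and MAB21L2 lie inside larger genes, NBEA and LRBA. NBEA was counted 99, 174 and 145 times in MC-F7, against 240, 202 and 171 times in MT-F7. Its log2 fold change was 0.42 ± 0.23 (SE), with an adjusted p of 0.215 in the edgeR test. LRBA was counted 32, 76 and 57 times in MC-F7, against 60, 47 and 56 times in MT-F7. Its log2 fold change was -0.14 ± 0.34 (SE), with an adjusted p of 0.809 in the edgeR test. Neither host gene passed the threshold. Whether counting used strand is not given in the sources used here, so reads from a host gene and from the gene inside it may not be told apart where they overlap.

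The nearest genes of the reference gene order on both sides of each member, with the 2 host genes, came to 22 genes, of which 20 were tested. In the edgeR test 8 of the 20 were higher, 2 lower and 10 did not pass, and their median log2 fold change was 0.44. Over all tested genes 11.9% were higher and 11.3% lower, with a median of -0.0026. The gastrin releasing peptide gene GRP, next to RAX, had 4.02, 1.95 and 2.20 CPM in MC-F7 and 20.3, 31.7 and 23.0 CPM in MT-F7. Its log2 fold change was 3.20 ± 0.28 (SE, edgeR adjusted p = 6.58e-06). IL17RD, next to HESX1, encodes an antagonist of FGF signaling and was also higher, by 3.16 ± 0.51 (SE) on the log2 scale (edgeR adjusted p = 7.65e-04), on 4 to 7 counts in the MC-F7 libraries.

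SIX2 and CAMKMT, the neighbors of SIX3, were higher by 1.19 ± 0.36 and 1.16 ± 0.36 (SE) on the log2 scale, but each was called in only 2 of 6 fits without 1 library. EXOC5 next to OTX2 (0.76 ± 0.18) and DCLK2 next to MAB21L2 (1.17 ± 0.25) were called in all 6 such fits. DCLK1 next to MAB21L1 (1.52 ± 0.40) was called in 4 of them and APPL1 next to HESX1 (0.54 ± 0.18) in 0. Both neighbors of HMX1 were lower, ADRA2C at a log2 fold change of -1.77 ± 0.42 (SE) and CPZ at -0.61 ± 0.21, and CPZ was called in 1 of 6 fits without 1 library. The neighbors of PAX6 (ELP4, RCN1) and LHX2 (DENND1A, NEK6) and the tested neighbor of SIX6 (PPM1A) did not pass the threshold, with log2 fold changes of 0.14 to 0.60.

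**Figure D4:**
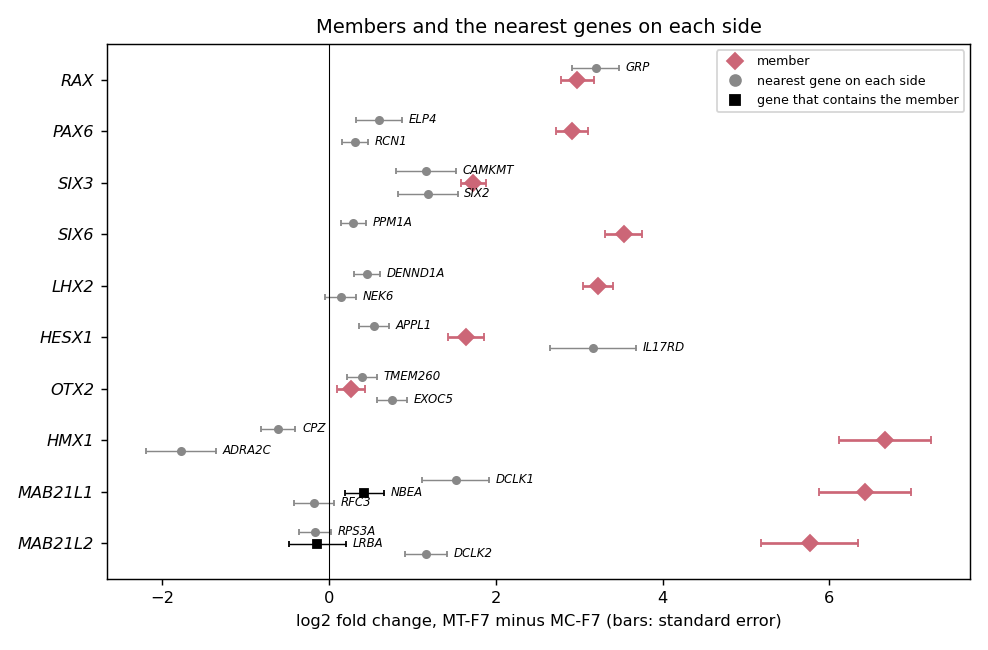
Log2 fold changes of MT-F7 against MC-F7 with bars of 1 standard error for each member (diamonds), the tested nearest gene on each side (grey circles) and the gene that contains the member (black squares). GRP and IL17RD lie above 3, and both neighbors of HMX1 lie below 0.

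Genes that work with the members were described by lists. Of the eye field and optic vesicle partners, 14 of the 20 measured genes were tested, 10 were higher, none lower and 4 did not pass, with a median log2 fold change of 1.67. Between 8 and 12 were higher in the fits without 1 library. ATOH7, a factor of retinal ganglion cell formation, was higher by 4.01 ± 0.59 (SE) on the log2 scale and ALDH1A3, an enzyme of retinoic acid synthesis in the ventral retina, by 3.63 ± 0.68. Both rest on few counts in MC-F7, with 6, 16 and 0 for ATOH7 and 14, 2 and 0 for ALDH1A3. Without 1 library their log2 fold changes ran from 3.45 to 5.21 and from 3.07 to 5.92. PAX2, a factor of the optic stalk, had 12.5, 12.2 and 15.6 CPM in MC-F7 and 75.5, 88.1 and 102 CPM in MT-F7 (log2 fold change 2.72 ± 0.18, edgeR adjusted p = 7.86e-07). VAX2, a factor of the ventral optic cup, was higher by 2.20 ± 0.23 (SE).

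Paralogs of the members were counted in the same way. Of 13 tested paralogs, 5 were higher, 2 lower and 6 did not pass, with a median log2 fold change of 0.54. PAX2, named above, is in this list too. PAX3, a dorsal neural tube and neural crest factor, was higher by 3.60 ± 0.60 (SE) on the log2 scale on at most 9 counts in the MC-F7 libraries, and LHX5, a forebrain LIM factor, by 1.72 ± 0.15. The 2 lower paralogs, SIX4 and LHX1, were named after their values were seen, and the number of lower paralogs called was 1 without MC-F7 replicate 1 or 2 and 0 without any other single library. PAX1, PAX4, PAX5, PAX9, HMX3 and MAB21L3 were at 3 counts or fewer in every library, so MAB21L3 was not detectable above that level in either group. MAB21L4, named after its values were seen, did not pass the filter on low counts, with 9, 6 and 1 counts in MC-F7 against 0, 1 and 2 in MT-F7.

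Of 15 tested cofactors, 7 were higher and 8 did not pass, with a median log2 fold change of 0.41. EYA2 and EYA1, coactivators of sine oculis homeobox factors, were higher by 3.14 ± 0.24 and 1.87 ± 0.19 (SE) on the log2 scale. LMO2 and LMO1, LIM-only proteins that compete with LHX2 for its partner, were higher by 1.85 ± 0.22 and 1.81 ± 0.16.

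All 9 tested secreted antagonists of the head organizer list passed the threshold, 7 higher and 2 lower, with a median log2 fold change of 1.5. DKK1, an inhibitor of WNT reception, was counted 162, 267 and 132 times in MT-F7 and 0 times in every MC-F7 library. Scaled by library size alone, without TMM factors, that allows up to 0.128 to 0.137 CPM there. FRZB, which binds WNT, had 2.39, 0.746 and 0.982 CPM in MC-F7 and 15.7, 18.8 and 12.1 CPM in MT-F7. NOG, a BMP antagonist, was higher by 2.92 ± 0.41 (SE) on the log2 scale. LEFTY2, an inhibitor of NODAL, went the other way, with 4.42, 7.33 and 4.72 CPM in MC-F7 and 0.119, 0.347 and 0.0849 CPM in MT-F7. LEFTY2 was called in 6 of 6 fits without 1 library. The other lower gene, the BMP antagonist CHRD, named after its values were seen, had a log2 fold change of -0.76 ± 0.23 (SE), and the list had 1 lower call in place of 2 in the fits without MC-F7 replicate 2 or 3 or MT-F7 replicate 1 or 2.

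Posterior neural plate factors were listed as the counterpart of the anterior genes. CDX1, CDX2, HOXB1 and HOXB2 were at 3 counts or fewer in every library. GBX2, which marks the plate behind the OTX2 domain, was lower with a log2 fold change of -2.22 ± 0.41 (SE).

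Later eye genes were measured for comparison. Of 10 tested lens genes, 6 were higher, 1 lower and 3 did not pass, with a median log2 fold change of 1.42. CRYAB, a small heat shock protein also made in other tissues, took most of the summed level of the list, at 151, 113 and 121 CPM in MC-F7 and 615, 1114 and 719 CPM in MT-F7. CRYBB3 went from 2, 2 and 3 counts in MC-F7 to 43, 77 and 86 counts in MT-F7. MAF and MIP were higher by 1.78 ± 0.24 and 1.56 ± 0.29 (SE), and FOXE3, a defining factor of the lens placode, was at 0 in every library.

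Of 4 tested genes of the retinal pigment epithelium list, 3 were higher and 1 did not pass, with a median log2 fold change of 3.10. PMEL had 4.51, 4.43 and 4.25 CPM in MC-F7 and 39.0, 45.4 and 43.8 CPM in MT-F7, and RLBP1, a retinoid carrier, was higher by 3.57 ± 0.29 (SE) on the log2 scale. TYRP1 was higher by 2.92 ± 0.47 (SE), and BEST1, at -0.05, did not pass the threshold. DCT, MITF and BEST1 were named after their values were seen. DCT and MITF did not pass the filter on low counts. DCT had 0 counts in every MC-F7 library and 3, 6 and 12 in MT-F7. MITF had 0, 0 and 2 counts in MC-F7 against 7, 19 and 5 in MT-F7. TYR and RPE65, which define pigment synthesis and the retinoid cycle of that layer, were at 0 in every library. Of the 3 tested photoreceptor genes, GNAT1 was higher by 1.15 ± 0.24 (SE) and 2 did not pass, and RCVRN, NRL and PDE6B were at 3 counts or fewer in every library.

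Markers of other cell types were counted in the same libraries. Of 6 tested pluripotent cell markers 5 were lower and 1 did not pass, with a median log2 fold change of -1.61 and summed levels of 950 to 1588 CPM in MC-F7 and 579 to 629 CPM in MT-F7. POU5F1, the core pluripotency factor, had 1456, 1305 and 825 CPM in MC-F7 and 557, 524 and 486 CPM in MT-F7, so it stayed well expressed in both. NANOG and ZFP42 were lower, with log2 fold changes of -2.02 ± 0.19 and -2.73 ± 0.26 (SE), and so was LIN28A at -0.85 ± 0.24, which was called in 3 of 6 fits without 1 library.

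Of 3 tested placode and surface ectoderm markers all 3 were higher, with a median log2 fold change of 3.69 and summed levels of 9.70 to 12.9 CPM in MC-F7 and 75.3 to 109 CPM in MT-F7. They were DLX5 (4.01 ± 0.23, SE), DLX6 (3.69 ± 0.27) and EYA1, which is also in the list of cofactors, and TP63, KRT5 and KRT14 were at 3 counts or fewer in every library. Of 6 tested neural progenitor and neuron markers, 2 were higher, 1 lower and 3 did not pass, with a median log2 fold change of 0.64 and summed levels of 696 to 836 CPM in MC-F7 and 1023 to 1150 CPM in MT-F7. MAP2, a dendrite protein, was higher by 2.13 ± 0.21 (SE) and the neuronal gene ELAVL3 lower, with a log2 fold change of -2.35 ± 0.35.

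Of 5 tested neural crest markers 1 was lower, FOXD3 at -2.49 ± 0.28 (SE), and 4 did not pass, with a median log2 fold change of 0.15 and summed levels of 18.0 to 21.1 CPM in MC-F7 and 16.6 to 17.4 CPM in MT-F7. Of 11 tested fibroblast markers, 3 were higher, 1 lower and 7 did not pass, with a median log2 fold change of 0.33 and summed levels of 222 to 298 CPM in MC-F7 and 339 to 392 CPM in MT-F7. COL3A1 was higher by 1.65 ± 0.20 (SE) on the log2 scale, and TWIST2 was lower, with a log2 fold change of -2.15 ± 0.53. The feeders were mouse cells. The paper reports a higher share of reads aligned to the cattle genome in MT-F7 than in MC-F7. It proposes that fixed feeders left less feeder contamination. Neither the share of reads that came from mouse RNA nor the part of these cell types in the values of the members was tested here.

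**Figure D5:**
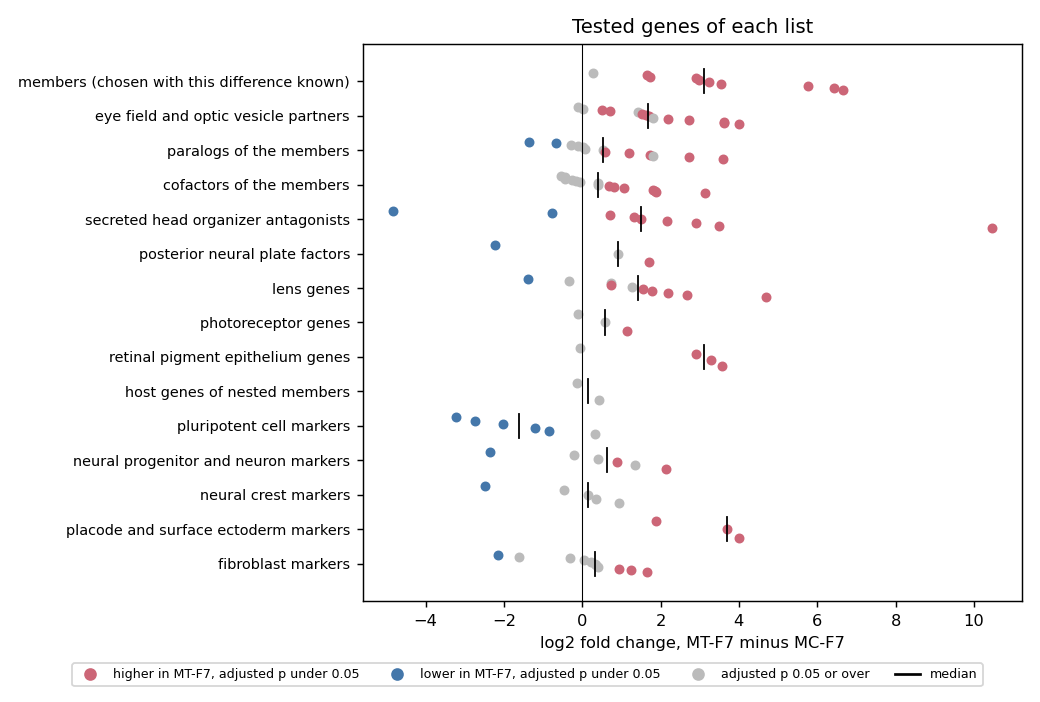
Log2 fold changes of MT-F7 against MC-F7 for the tested genes of each list, colored by the edgeR call at an adjusted p under 0.05, with a black line at the median of each list. The medians are 3.10 for the members, 1.67 for the eye field partners and -1.61 for the pluripotent cell markers, beside -0.0026 for all tested genes.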

How the data were processed

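RNA-seq counts of 6 libraries were used, 3 of MC-F7 and 3 of MT-F7, grouped by the sample titles. The authors aligned the reads with HISAT2 2.0.5, counted them per gene with featureCounts 1.5.0-p3 and deposited raw counts per Entrez gene. The genome build is not given in the sources used here. They also deposited a table named TPM by the authors, with 21653 lines, which was counts over length times 1 shared factor, with sums of 155595 to 165666 per library. These TPM values were rescaled here to 1000000 per library.

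The members and lists were chosen with earlier results of these data known. Genes were filtered by filterByExpr (minimum count 10, minimum total 15), normalized by TMM and tested two-sided with edgeR 4.0.16 in R 4.3.3 (quasi-likelihood, no block, Benjamini-Hochberg over 13001 genes, threshold 0.05). CPM values are TMM-normalized. On simulated data 185 of 200 changed genes were recovered among 19163, with 9 false calls of 194. An exact permutation test of 3 against 3 cannot go below p = 0.1 and was not used.

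Genes named were the members, their neighbors and hosts, up to 4 genes of each list (called, without overlap, at least 1 CPM on average, largest change first) and the 3 genes most alike to each member. Alternatives were DESeq2 1.42.0, RLE factors, library size alone, no filter, limma 3.58.1 on log2(TPM + 1) and log2(TPM + 0.1), a replicate block, a fold threshold and leaving out each library. Neighbors were read from RefSeq gene order (ARS-UCD2.0), without coordinates. SOX2, FOXD1, PAX7, TLE1, LEFTY1, LIN28B, TDGF1, UTF1 and SOX1 were not analysed here. Gene sequences were not used here.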

Additional observations from a re-analysis of the deposited data

How the results depend on the processing

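The 9 members called were called under all 13 alternatives, and OTX2 under none. The count of all genes called, 3016 (1553 higher, 1463 lower), became 4674 (2373 higher, 2301 lower) with a replicate block, 822 (432 higher, 390 lower) at an absolute log2 fold change over 1.5, and 1914 to 3093 (1019 to 1592 higher, 895 to 1567 lower) without 1 library, the lowest without MC-F7 replicate 2. Libraries of the same number were not paired by the labels, and their deviations from the group means correlated across genes by 0.13, 0.045 and 0.42 for replicates 1, 2 and 3, so the block was not used. The median log2 fold change of the members was 3.10, and 2.73 with limma on log2(TPM + 1), a scale that understates low genes. On the alternatives HMX1 ran from 3.11 to 7.94, MAB21L1 from 1.71 to 7.24 and MAB21L2 from 3.04 to 7.98, with few counts in MC-F7 behind each. Among genes that were not called, LRBA turned from -0.14 to 0.11 without MC-F7 replicate 2 (range -0.41 to 0.11 without 1 library), NEK6 from 0.14 to -0.026 without MC-F7 replicate 3 (-0.026 to 0.26) and RFC3 from -0.18 to 0.040 without MT-F7 replicate 3 (-0.45 to 0.040), and the cause was not tested. The ratio of the summed level of the members, MT-F7 over MC-F7, was 3.68, and 3.38 to 3.93 without 1 library.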
